A study of Mus musculus with 3 samples.

Results

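Fixed single-base differences from the mouse reference genome were examined on chromosome 11 between 50 and 60 Mb in 3 haploid embryonic stem cell (ESC) lines. They were selected on the deposited read counts: a position was taken when it had 1 reference and 1 alternate base, a depth of at least 10 reads and at least 80% alternate reads in each of the 3 lines, and when its gene was not named as an olfactory (*Olfr*) or vomeronasal (*Vmn*) receptor. This gave 760 positions of the 3765 that met the same rule on chromosomes 1 to 19, X and Y, and of 11635 positions listed in all. The interval thus held 20.2% of all fixed positions and 62.8% of the 1210 on chromosome 11. Of all listed positions outside receptor genes with at least 10 reads in every line, 38.8% were fixed. In the interval 96.9% of 784 such positions were fixed, and since the rule used these reads, nothing is read from the difference.

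DNA came from O48 cells at passage 40 (WT), from ΔDSM-O48-1 cells at passage 60 (knockout of *Dmpk*, *Six5* and *Mbnl1*, labelled DSM) and from ΔDSMD-O48-2 cells at passage 70 (knockout of *Dmwd* as well, labelled DSMD). All are androgenetic haploid ESCs, which carry only a paternal genome, are labelled C57BL/6, and derive from O48, which lacks the *H19* and *IG* differentially methylated regions. Genomic DNA of 1 library per line was sequenced, so a share of reads describes a library and its interval covers counting error only. The 2 knockout lines are each 1 clone, and the lines descend from each other, so the 3 are not independent samples of a strain. The table holds substitutions in exons only, which gives no check of the targeted genes.

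The mouse reference assembly was made from C57BL/6J mice, so a base that differs from it in all reads of a haploid line is one at which the line's single chromosome copy carries another letter. In exons, such a difference can replace an amino acid (nonsynonymous), leave it as it is (synonymous), end or extend a protein (stop-gain, stop-loss), or lie in the 5′ or 3′ untranslated region (UTR) of an mRNA or in an RNA that codes for no protein. Differences inherited together on a stretch of chromosome are linked, and neighbouring positions are therefore not independent observations. The strain origin of the stretch was not tested, since the table holds no other strain.

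The sequences below show what the fixed positions look like, with the reference first, then the 3 lines, and the differing bases in capitals. All are from GRCm38.p6, 5′ to 3′ on the strand of the gene. The stretch of at most 90 coding bases with the most fixed positions was in exon 5 of 5 of *Zfp354a*, a KRAB zinc finger gene (chr11:51069410-51069499, plus strand). Its 6 differences encode N151D, R159K and S164P and are synonymous at K149K, Q169Q and L177L. Residues are counted from 1 at the initiator methionine of the RefSeq protein.
Zfp354a reference: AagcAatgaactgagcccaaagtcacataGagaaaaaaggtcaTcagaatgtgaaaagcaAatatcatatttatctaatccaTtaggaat
Zfp354a lines: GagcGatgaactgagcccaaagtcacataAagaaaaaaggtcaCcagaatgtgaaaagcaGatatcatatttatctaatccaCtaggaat

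The next 5 pairs hold the amino acid replacements with the lowest score in BLOSUM62, a matrix in which a negative score marks a replacement that is rare between related proteins. All 5 scored -3. They were in *Canx* (calnexin, a chaperone of the endoplasmic reticulum; chr11:50297079-50297123, minus strand), *Zfp879* (a zinc finger protein; chr11:50833577-50833621, minus strand), *Rad50* (a subunit of the MRN complex of DNA double-strand break repair; chr11:53698249-53698293, minus strand), *Csf2* (the cytokine GM-CSF; chr11:54247588-54247620, minus strand) and *Fat2* (an atypical cadherin; chr11:55256214-55256257, minus strand). Only coding bases of 1 exon are printed.
Canx V560G reference: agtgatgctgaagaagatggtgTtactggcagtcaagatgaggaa
Canx V560G lines: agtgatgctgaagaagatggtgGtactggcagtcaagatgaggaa
Zfp879 G210V reference: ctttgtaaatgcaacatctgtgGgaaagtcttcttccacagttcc
Zfp879 G210V lines: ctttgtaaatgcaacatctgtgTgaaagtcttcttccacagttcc
Rad50 G200V reference: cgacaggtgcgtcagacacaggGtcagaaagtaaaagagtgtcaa
Rad50 G200V lines: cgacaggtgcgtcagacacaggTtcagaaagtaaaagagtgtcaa
Csf2 G139V reference: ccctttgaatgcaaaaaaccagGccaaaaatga
Csf2 G139V lines: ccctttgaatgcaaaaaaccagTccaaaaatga
Fat2 P3978L reference: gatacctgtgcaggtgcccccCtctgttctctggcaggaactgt
Fat2 P3978L lines: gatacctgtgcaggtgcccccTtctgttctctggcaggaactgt

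One fixed position lay in a miRNA precursor, the *Mir3061* hairpin (chr11:52126746-52126836, plus strand, RefSeq). The change was T47G, counted from the first base of the hairpin (U in the RNA), and lay 11 bases from each mature arm. No fixed position lay in either mature miRNA, printed below with the seed (bases 2 to 8) in capitals.
Mir3061 reference: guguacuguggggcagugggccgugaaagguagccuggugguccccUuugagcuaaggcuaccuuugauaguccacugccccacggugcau
Mir3061 lines: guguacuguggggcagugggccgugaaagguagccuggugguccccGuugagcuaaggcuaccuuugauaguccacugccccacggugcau
mmu-miR-3061-5p: cAGUGGGCcgugaaagguagcc
mmu-miR-3061-3p: cUACCUUUgauaguccacugcc

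The fixed positions did not fill the interval. The first lay at 50135924 in *Tbc1d9b* and the last at 56040927 in the 5′ UTR of *Nmur2*, and none was found over the remaining 3.96 Mb. The next fixed position of the chromosome was at 61673601. The stretch without one held 370 kb of curated exon and overlapped 92 genes with a curated RefSeq mRNA, receptor genes not counted. The 370 kb also takes in exons of noncoding RNAs and of any receptor genes there, whose positions the rule leaves out. Since this stretch runs between neighbouring fixed positions, its count is 0 by construction, and no limit on density is read from it. Up to the last fixed position the interval held 2.13 per kb of curated exon (95% interval 1.97 to 2.30; 664 positions in 311 kb). These 311 kb also take in exons of receptor genes. The last fixed position is shown in 21 bases of the minus strand of *Nmur2* (chr11:56040917-56040937).
Nmur2 last fixed position reference: agacagagccTcaagagcaag
Nmur2 last fixed position lines: agacagagccCcaagagcaag

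Density was highest next to that edge. It was 0.893 per kb of exon from 50 to 51 Mb, 1.29 from 51 to 52 Mb, 0.997 from 52 to 53 Mb and 1.22 from 53 to 54 Mb, and the intervals of these 4 bins overlapped. It was 2.32 (1.91 to 2.79) from 54 to 55 Mb and 6.84 (6.07 to 7.68) from 55 to 56 Mb. The bin from 55 to 56 Mb alone held 359 fixed positions, 47.2% of those in the interval. From 56 to 57 Mb, 25 fixed positions, all in *Nmur2*, fell in 4.19 kb of exon (5.96 per kb, 3.86 to 8.79). The 10 Mb before the interval held 335 fixed positions (1.14 per kb of exon), and from 60 Mb to the end of the chromosome there were 9. The exon lengths here also take in curated exons of receptor genes, whose positions the rule leaves out. All listed receptor positions of the interval lay between 50 and 53 Mb, which lowers the densities there. With receptor genes kept, the density of the whole interval was 1.26 in place of 1.24 per kb. Counts chosen by the rule carry no test.

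**Figure D1:**
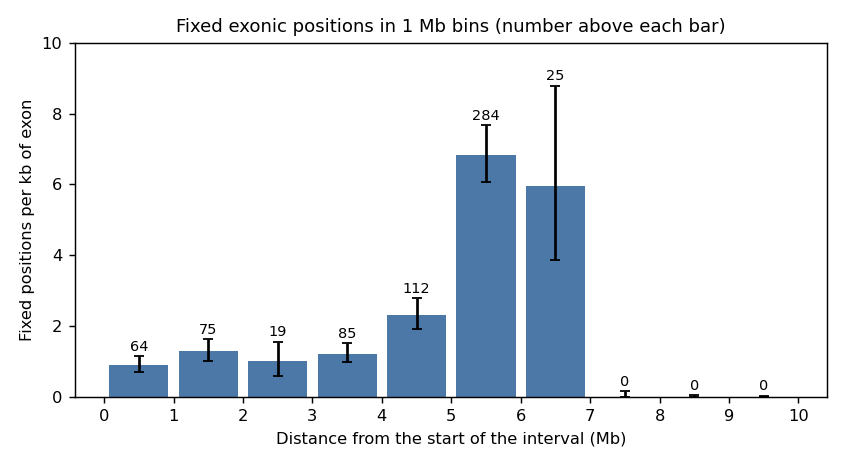
Fixed positions per kb of curated RefSeq exon in 1 Mb bins, against the distance in Mb from the start of the interval. Bars give the density, error bars the exact 95% binomial interval and numbers the positions in exons. The exon length includes receptor genes, whose positions are left out. The bin with 284 positions stands at 6.84 per kb and the 3 last bins at 0.

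Of the 85 genes with a curated mRNA up to the last fixed position, 65 (76.5%) had at least 1 in an mRNA exon. Neighbouring fixed positions were a median of 126 bases apart, and 12 gaps were longer than 100 kb. The longest ran over 704 kb from 52407622 to 53111711 and held 2.27 kb of curated exon. Other gaps held whole genes: *Cdkl3*, *Cdkn2aipnl* and *Ube2b* within 250 kb and 8.42 kb of exon, *Hspa4* and *Zcchc10* within 217 kb and 9.44 kb of exon, and *Fnip1* within 225 kb and 9.90 kb of exon. Each gap runs between neighbouring fixed positions and so holds 0 by construction, and no limit on density is read from it.

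The reads at the fixed positions were nearly all alternate, as the rule requires. Depth at a fixed position ran from 10 to 53 reads in O48 (median 32.0), from 10 to 53 in ΔDSM-O48-1 (median 33.0) and from 12 to 60 in ΔDSMD-O48-2 (median 32.0). O48 had 18 reference reads among 24420, ΔDSM-O48-1 18 among 24892 and ΔDSMD-O48-2 15 among 24257. At 728 of the 760 positions no line had a reference read, and 759 were called homozygous in all 3 lines. The 5 positions with the lowest share were C51234259G in *Gm12569* (40 of 46, 44 of 50 and 40 of 46 reads in O48, ΔDSM-O48-1 and ΔDSMD-O48-2), T56025425C in *Nmur2* (27 of 29, 27 of 27 and 33 of 33), C53463367A in *Shroom1* (24 of 24, 31 of 32 and 17 of 18), C51234867T in *Gm12569* (36 of 36, 23 of 24 and 34 of 34) and T55125667C in *Slc36a3* (25 of 26, 40 of 40 and 24 of 24). Outside the rule and receptor genes, the position of this depth with the highest share in its lowest line was T51234096A in *Gm12569*, with 51.0, 37.1 and 29.3% alternate reads. No such position had a share between 29.3 and 87.0% in its lowest line.

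The interval listed 96 further positions. Of these, 13 were in receptor genes and otherwise fixed, 47 were in receptor genes and not fixed, 8 had fewer than 10 reads or no call in a line, 26 had a share under 80% in a line, and 2 had more than 1 alternate allele. The 8 shallow positions were in *Zfp354a*, *Lyrm7* and the noncoding RNAs *Gm19911* and *Slc36a1os*, and every read counted there was alternate. One position of the table's unnamed entries lay in the receptor pseudogene *Olfr1372-ps1* by RefSeq and was kept, since the rule uses the table's names. Beyond the last fixed position 19 positions in 6 genes or unnamed entries were listed, among them *Gria1*, a glutamate receptor subunit, *Nlrp3*, an inflammasome sensor, *Pld6* and *Med9*. Of 17 with 1 alternate base, 15 were changes to C, 11 of them A to C, and no line had a share above 60.0% at any of them. In *Gm12569*, the table's H144Y and E145K had 6 alternate reads in each line, the same number as the reference reads of each line at C51234259G nearby.

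**Figure D2:**
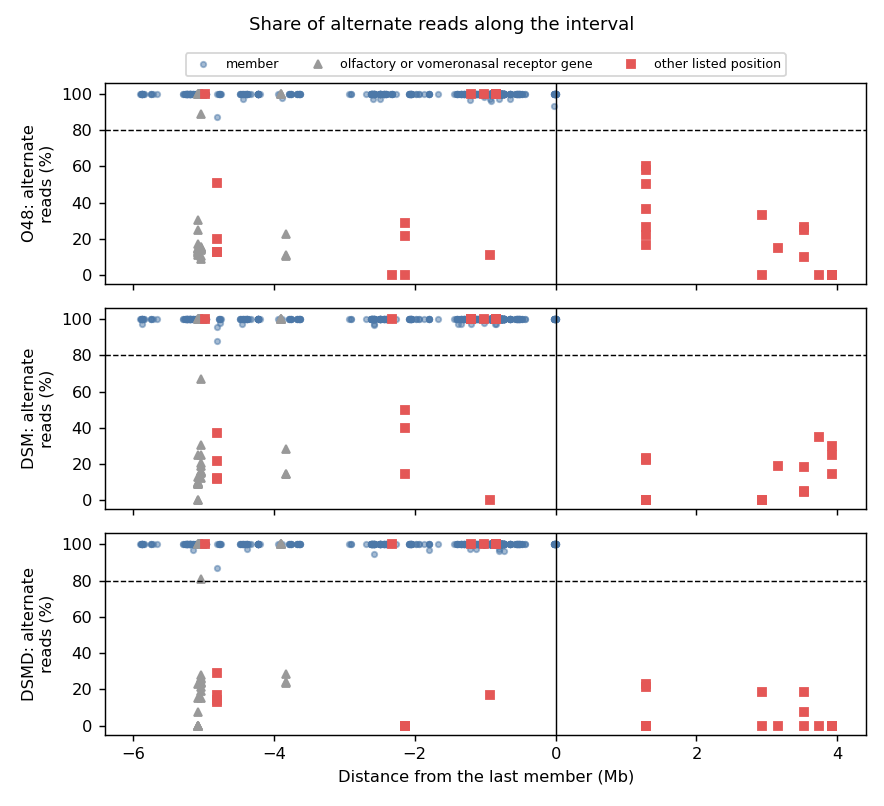
Share of alternate reads in percent at every listed position with 1 alternate base, against the distance in Mb from the last fixed position, in O48, DSM and DSMD. Blue points are fixed positions, grey triangles are in receptor genes, red squares are other listed positions, and the dashed line marks 80%. Left of the vertical line nearly all points lie at 100%, with red squares at 100% at positions too shallow for the rule or, in DSM and DSMD, at 1 position in *Il5*, and right of it none exceeds 60.0%.

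The table called 283 of the 760 positions 3′ UTR, 262 synonymous, 154 nonsynonymous, 40 5′ UTR, 8 stop-loss, 5 start-gain, 4 stop-gain, 3 synonymous in a stop codon and 1 intragenic. On curated RefSeq mRNAs of the same build, 289 were in a 3′ UTR, 219 synonymous, 57 nonsynonymous and 45 in a 5′ UTR, 54 in exons of curated noncoding RNAs, 68 in exons of model transcripts only and 28 outside RefSeq exons. All 57 nonsynonymous positions were also called so in the table. Of the other 97 that the table called nonsynonymous, 94 stood under entries with a bare identifier in place of a gene symbol, and the rest were in *Mir3061* and *Gm12230*. None of the 15 positions that the table gave a change in a stop codon was in the coding sequence of a curated mRNA. Within that coding sequence, 273 of 276 positions had the same amino acid change in the table as on a curated mRNA, and no codon held a pair of them. The residue numbers given here can differ from the table's, for example in *Jade2*, *Tnip1* and *Zfp354a*, where the table counted on another transcript or model.

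The entries with a bare identifier were 16 in number and held 150 of the fixed positions. By coordinates, 67 of the 73 positions of the largest lay in exons of *Gm19911*, a model noncoding RNA within the span of *Anxa6*, 23 in *Slc36a1os*, 15 in *Lyrm7os* and 8 in *D930048N14Rik*, all noncoding RNAs, and 6 in the 3′ UTR of *Sparc*. The table read these as protein: it gave *Gm19911* the stop-gains K584* and R1700* and the stop-losses *593W, *630Y and *1497Y. K584* and *593W fall in the stretch chr11:55025476-55025529 (plus strand), given here for the reference and the lines. The other stop-gains were R213* in an unnamed entry, outside RefSeq exons, and R97* in *Gm12230*, also outside. The 5 start-gains, calls of a start codon arising in a 5′ UTR, were in *Hnrnph1*, *Zfp2*, *Zfp354a* and *Cdc42se2*, which held a pair.
Gm19911 reference: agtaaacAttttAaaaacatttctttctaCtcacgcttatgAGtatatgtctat
Gm19911 lines: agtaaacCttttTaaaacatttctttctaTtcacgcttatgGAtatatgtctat

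Fewer of the coding positions replaced an amino acid in the interval than among the other fixed positions. By the table, 154 of 416 coding positions (37.0%, 95% interval 32.4 to 41.9) were nonsynonymous, against 894 of 1695 elsewhere (52.7%, 50.3 to 55.1), a difference of -15.7 percentage points (two-sided Fisher's exact test over positions, Benjamini-Hochberg adjusted p = 3.3e-08 over 4 tests). The comparison on curated RefSeq mRNAs, also without *Fat2*, was not planned and was added after the data were seen. On these mRNAs the share was 57 of 276 (20.7%, 16.0 to 25.9) against 460 of 1104 (41.7%, 38.7 to 44.6; Fisher's exact test, adjusted p = 1.7e-10). *Fat2* had 12 nonsynonymous and 71 synonymous positions. Without it the table's difference was -10.1 percentage points (Fisher's exact test, adjusted p = 0.00312), and on RefSeq mRNAs the share was 45 of 193 (23.3%), a difference of -18.4 points (Fisher's exact test, adjusted p = 3.6e-06). The test counts positions, and since linked positions are not independent these p-values are too small. They compare lists of positions and not samples.

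The 10 Mb just before the interval had a share of 39.1% (30.2 to 48.7; 45 of 115). Chromosome 2 had 30.8% (23.5 to 39.0), chromosome 9 36.2% (27.0 to 46.1), chromosome 4 39.3% (30.6 to 48.6) and chromosome 3 45.5% (40.3 to 50.8). The interval of chromosome 2 overlapped that of the 50 to 60 Mb stretch, and these blocks were not tested one by one. Within it, the share was 13.7% (8.43 to 20.5; 19 of 139) from 55 to 56 Mb and 43.3% (25.5 to 62.6; 13 of 30) from 51 to 52 Mb, where *Zfp354a* and *Jade2* lie.

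**Figure D3:**
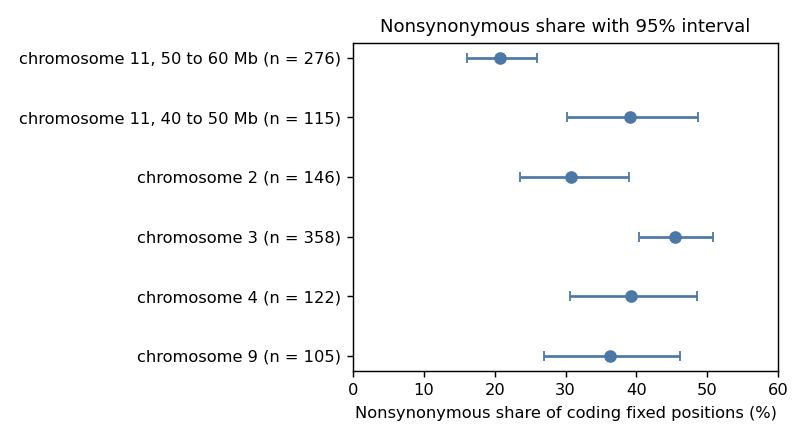
Nonsynonymous share in percent of the fixed positions in coding sequence of curated RefSeq mRNAs, for the interval, the 10 Mb before it and 4 other chromosomes. Points give the share, bars the exact 95% binomial interval and n the coding positions. The RefSeq effects were an alternative added after the data were seen. Among the blocks drawn the interval stands lowest at 20.7%, and its bar overlaps that of chromosome 2. Other chromosomes are not shown.

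The other measures differed less. Transitions (A to G, C to T and the reverse) made up 566 of 760 changes (74.5%, 71.2 to 77.5) against 2114 of 3005 elsewhere (70.3%, 68.7 to 72.0; Fisher's exact test, adjusted p = 0.0501), which did not pass the threshold of 0.05. Without *Fat2* the difference was 2.39 percentage points in place of 4.12 (Fisher's exact test, adjusted p = 0.477). A reference base in a CpG, the dinucleotide at which cytosine is methylated in mammals, was found at 141 positions (18.6%, 15.8 to 21.5) against 16.6% elsewhere (Fisher's exact test, adjusted p = 0.285). Of the table's amino acid replacements, 68 of 154 (44.2%, 36.2 to 52.4) had a BLOSUM62 score under 0, against 47.4% (44.1 to 50.8; Fisher's exact test, adjusted p = 0.485). On RefSeq mRNAs, a comparison added after the data were seen, this was 18 of 57 (31.6%, 19.9 to 45.2) against 44.1% (39.5 to 48.8; Fisher's exact test, adjusted p = 0.117). Up to the last fixed position, untranslated exon sequence of curated mRNAs held 2.41 fixed positions per kb (2.16 to 2.68; 334 in 139 kb). Coding sequence there held 1.96 (1.74 to 2.21; 276 in 141 kb).

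By RefSeq, fixed positions lay in exons of 76 genes, of which 49 had at least 3 and 23 at least 10. Among genes with a curated mRNA and at least 3, the density ran from 0.699 to 9.67 per kb of exon, with a median of 2.66. A nonsynonymous position was found in 27 mRNA genes, 24 others had synonymous coding positions only, and 14 had fixed positions in UTRs only. *Fat2* had 96 in all, 6.66 per kb of exon. It was followed by *Gm19911* with 67, *Slc36a1* with 51 and *Gm2a* with 40, and these 4 genes held 254 of the 760.

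**Figure D4:**
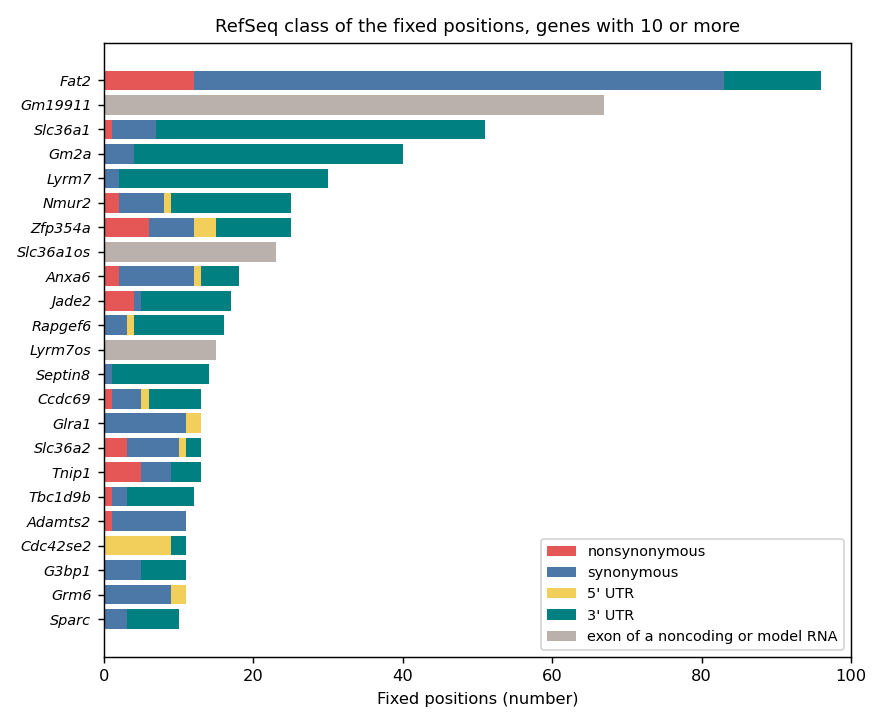
Number of fixed positions in each gene with 10 or more, coloured by class on RefSeq transcripts. *Fat2* is mostly synonymous (71 of 96), whereas *Slc36a1*, *Gm2a* and *Lyrm7* are mostly 3′ UTR and the grey bars are noncoding RNAs.

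The counts of genes with a fixed position in the groups described next are to be read against the 76.5% of all mRNA genes of the stretch that had one, and nothing particular to a group is read from them. The genes for cell adhesion and extracellular matrix held 122 fixed positions, 96 of them in *Fat2*, and all 4 of the group's genes up to the last fixed position had at least 1. *Fat2* carried 12 of their 14 replacements, spread over 7 exons: I346V, E606K, K816N, T847A, R1006K, H1515P, T1833S, I2557V, S3073T, Y3241H, I3523V and P3978L. P3978L in exon 21 of 23 had 36 of 36, 35 of 35 and 34 of 34 alternate reads in O48, ΔDSM-O48-1 and ΔDSMD-O48-2, and H1515P in exon 7 had 33 of 33, 32 of 32 and 37 of 37. Every read was alternate at both. *Adamts2*, which encodes the procollagen N-proteinase, had 10 synonymous positions and V1130L in its last exon. *Col23a1*, a transmembrane collagen gene, had A288P and 3 synonymous positions in coding sequence. *Sparc*, a collagen-binding matricellular glycoprotein gene, had 3 synonymous positions and 7 in the 3′ UTR.

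Of 6 solute carrier genes in the interval, 5 had fixed positions, 85 in all, beside 76.5% of all mRNA genes of the stretch, and *Slc22a5* had none. The proton-coupled amino acid transporter genes *Slc36a1*, *Slc36a2* and *Slc36a3* stand side by side and had 51, 13 and 4. *Slc36a1* had 44 of its 51 in the 3′ UTR and 1 replacement, I298V (39 of 39, 37 of 37 and 35 of 35 reads). *Slc36a2* had F128S, V436I and M448V, and F128S in exon 4 of 10 had 47 of 47, 27 of 27 and 37 of 37 alternate reads. *Slc36a3* had 3 synonymous positions and 1 in the 5′ UTR. *Slc22a4*, an organic cation transporter gene, had G533W and S545N in its last exon, and G533W had 31 of 31, 35 of 35 and 32 of 32 alternate reads. *Slc22a21*, of the same family, had 7 synonymous positions and no replacement.

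All 6 genes named *Zfp* up to the last fixed position had at least 1, with 44 in all: 8 nonsynonymous, 12 synonymous and 24 in UTRs. The share over all mRNA genes of the stretch was 76.5%. *Zfp354a* had 25, with L14V, V139M, N151D, R159K, S164P and V569M. S164P had 39 of 39, 27 of 27 and 39 of 39 alternate reads. *Zfp354b* had E188K alone and *Zfp879* G210V with 42 of 42, 30 of 30 and 24 of 24 alternate reads. *Zfp879* G210V lay in exon 5 of 5. *Zfp354c* had 8 and *Zfp2* 6, none nonsynonymous, and *Zfp454* had 1 in its 3′ UTR.

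The type 2 cytokine genes and some of their neighbours form a group that was chosen after the values were seen. Other genes that lie among them, such as *Shroom1*, *Sowaha*, *Septin8*, *Slc22a4* and *Slc22a5*, were not put in it. Of the group's 9 genes, 8 had fixed positions, 32 in all, beside 76.5% of all mRNA genes of the stretch, and *Il3* had none. *Il4* had its position in a noncoding variant only, which the 76.5% over all mRNA genes does not count. *Il5*, the eosinophil growth factor gene, had R79H (39 of 39, 37 of 37 and 29 of 29 alternate reads), and *Csf2* had G139V in its last exon (26 of 26, 31 of 31 and 25 of 25). *Il13* had 3 synonymous positions and 3 in its 3′ UTR, and *Irf1*, an interferon response factor gene, had 1 in its 3′ UTR. *Rad50* had G200V in exon 5 of 25 (28 of 28, 29 of 29 and 29 of 29). *Gdf9*, an oocyte growth factor gene, had I296T (39 of 39, 27 of 27 and 29 of 29), and *Kif3a*, a kinesin motor gene, had K404R and M683T.

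Other replacements were scattered. *Canx* V560G in exon 14 of 15 had 46 of 46, 41 of 41 and 37 of 37 alternate reads. *Tnip1*, which encodes an A20-binding inhibitor of NF-κB signalling, had G8R, A111T, S128P, A308V and A533V, and G8R had 37 of 37, 37 of 37 and 35 of 35. *Jade2*, a PHD finger gene, had Y80C, V622L, A710T and D837N, and Y80C had 31 of 31, 37 of 37 and 35 of 35. All reads at these positions were alternate in the 3 lines. *Anxa6*, a calcium-dependent membrane-binding annexin, had N61S and V108I, and *Nmur2*, a neuromedin U receptor, V190M and I202M. *Shroom1* had T38K, *Tbc1d9b* I73T, *Gm12569* P206S, *Phykpl* H237R, *Fstl4* E251K, *Ccdc69* I34V and *9530068E07Rik* A55V.

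Genes with many fixed positions and no replacement were of several kinds. *Gm2a*, the GM2 ganglioside activator gene, had 4 synonymous positions and 36 in the 3′ UTR (9.40 per kb of exon), and *Lyrm7*, a complex III assembly factor gene, 2 and 28 (7.97 per kb). *Glra1*, a glycine receptor subunit gene, had 11 synonymous positions in 1.37 kb of coding sequence, and *Grm6*, the metabotropic glutamate receptor gene of retinal ON bipolar cells, 9. *G3bp1*, a stress granule protein gene, had 5 synonymous positions and 6 in the 3′ UTR. *Rapgef6*, a Rap exchange factor gene, had 3 synonymous positions, 1 in the 5′ UTR and 12 in the 3′ UTR, and *Septin8* had 1 synonymous position and 13 in the 3′ UTR. *Cdc42se2* had 9 in the 5′ UTR and 2 in the 3′ UTR. *Aff4*, a transcription elongation scaffold gene, had 8 in UTRs and none in 3.48 kb of coding sequence (0.787 per kb of exon). *Uqcrq*, *Hint1*, *Vdac1*, *Tcf7*, *Gpx3*, *Clk4* and *BC049762* had 3 to 6 each, none nonsynonymous.

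The groups that lie beyond the last fixed position had none. These were 3 *Trim* genes, 3 interferon-inducible GTPase genes, *Nlrp3*, *Wnt3a* and *Wnt9a*, and 7 genes of the stretch that matches human 17p11.2 (*Cops3*, *Flcn*, *Med9*, *Mprip*, *Nt5m*, *Pemt* and *Rasd1*). No aldehyde dehydrogenase gene with a curated mRNA starts in the interval.

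At 1 listed position of the interval, O48 had the reference genotype and both later lines a homozygous alternate genotype. At A53724794G in the 3′ UTR of *Il5*, O48 had 0 alternate of 41 reads (exact 95% interval 0 to 8.60%). The limit of 3 counts for this 0 is 7.32%. Alternate reads were 34 of 34 in ΔDSM-O48-1 (exact 95% interval 89.7 to 100%) and 30 of 30 in ΔDSMD-O48-2 (88.4 to 100%). The position lay 801 bases after 1 fixed position of *Il5* and 59 bases before the next, at which all 3 lines had alternate reads. It is shown in 21 bases of the plus strand (chr11:53724784-53724804), with the reference base as in O48 and the alternate base as in the later lines.
Il5 3′ UTR in O48: tggaaaagaaAagggacatct
Il5 3′ UTR in the later lines: tggaaaagaaGagggacatct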

How the data were processed

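The authors sequenced genomic DNA of 3 haploid ESC lines (1 library each) and deposited 1 table of exonic single-nucleotide variants. The submitters' processing notes name CASAVA 1.8.2, BWA 0.7.12, SAMtools, Picard, GATK and the build mm10, and the filters are not given in the sources used here. The deposited values used are counts of all, reference and alternate reads at each site, without normalization. The alternate counts can be comma lists at sites with several alleles, and such sites were not used. The deposited quality scores and the authors' allele fraction, which is over genotypes and not reads, entered no result. Duplicate and misplaced reads kept by the authors' alignment would change shares of reads, and exon sites removed by the authors' filters would lower a count per kb.

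Each position was taken once, with the effect of highest impact over its transcripts. At the fixed positions of the interval, 0 reference bases differed from GRCm38.p6, so RefSeq exons of that assembly gave the exon lengths, gene names by coordinates and recomputed effects. Genes were named by a rule: at least 3 fixed positions, a stop, start or splice change, the 10 replacements with the lowest BLOSUM62 score, positions next to the share threshold, or a gene group with a replacement. The cytokine group and the replacements in other genes were picked with their values known. The members and lists were chosen with earlier results of these data known. Shares carry exact Clopper-Pearson 95% intervals, and a count of 0 the limit of 3 counts, both for counting error only. Shares were compared with the other fixed positions by two-sided Fisher's exact tests with Benjamini-Hochberg adjustment over 4 tests. There were 12 alternative settings planned and 2 added after seeing the data. The steps were tested on simulated data. For Fisher's exact test these were independent counts, so the simulation did not cover linked positions. Python 3.11.15, pandas 2.3.3, scipy 1.17.1, pysam 0.24.0, Biopython 1.88 and matplotlib 3.10.9 were used. Insertions and deletions were not analysed here. Some genes are not reported here.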

Additional observations from a re-analysis of the deposited data

Results flagged for a closer look

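Some positions of the interval outside the fixed set had the reference genotype, at least 10 reads and 0 alternate reads in O48, and another genotype at a depth of at least 10 in a later line. A53724794G in the 3′ UTR of *Il5* had 100% alternate reads in ΔDSM-O48-1 and 100% in ΔDSMD-O48-2. The others had lower shares in 1 line: T58966511G in an unnamed entry had 18.5% in ΔDSMD-O48-2, and in ΔDSM-O48-1 A59784314C in *Pld6* had 34.8%, and A59962512C, A59962518C and A59962524C in *Med9* had 30.0, 25.0 and 14.3%. With 1 library per line none of these was tested.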

How the results depend on the processing

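The lower nonsynonymous share and the CpG share kept their direction and their side of the threshold under all alternatives run for them. The number of fixed positions (760) ranged from 697 with a depth of at least 20 to 773 with receptor genes kept. The number of genes by the table's names (84) ranged from 82 with a share of 1 to 87 with receptor genes kept. The density of 1.24 per kb of curated exon over the whole interval moved to 1.12 with a depth of at least 20. The difference in transition share, 4.12 percentage points by Fisher's exact test with adjusted p = 0.0501, passed the threshold under 5 of 11 alternatives: 4.38 points without a depth minimum above 1 read, 4.16 with homozygous genotypes, 4.45 with O48 alone, 4.24 with receptor genes kept and 4.79 without positions within 2 bases of another (adjusted p from 0.0226 to 0.0484). Under the other 6 it was 4.10 points with a share of at least 0.9, 3.58 with a share of 1, 3.36 with a depth of at least 20, 5.58 against the rest of chromosome 11, 3.87 against the other chromosomes and 2.39 without *Fat2* (Fisher's exact test, adjusted p from 0.0544 to 0.477). The difference in replacements with a BLOSUM62 score under 0 turned from -3.27 to 4.60 percentage points against the other parts of chromosome 11 (Fisher's exact test, adjusted p = 0.631). The nonsynonymous difference was -15.7 points by the table, -10.1 by the table without *Fat2* (adjusted p = 0.00312 by Fisher's exact test) and -21.0 on curated RefSeq mRNAs, an alternative added after seeing the data. The cause of these shifts was not tested. No paired analysis was possible because each line has 1 library and the shared replicate number names no pair. Depth of 10 to 60 reads limits a share at 1 position: 0 alternate of 41 reads allows up to 7.32% by the limit of 3 counts and up to 8.60% by the exact 95% interval.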
